A study of Mus musculus with 11 samples.

Results

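Endothelial cells line the capillaries of pancreatic islets, and 10 genes that mark these cells were followed in bulk islet RNA: Kdr, Flt1, Tek, Tie1, Ptprb, Cdh5, Pecam1, Esam, Plvap and Eng. They were taken by gene name from the deposited counts table of 32285 genes, with earlier results of these data known. All 10 had a row and passed the filter on low counts that left 15093 genes for testing. The mice were 16 weeks old and had eaten a high-fat diet for 4 weeks. Islets were kept for 24 h with azoramide at 10 µM, a small molecule known to act on protein folding in the endoplasmic reticulum, or with the solvent DMSO. The genotypes were βZKO_Mip, a loss of Zzef1 in beta cells as the series title has it, and littermate control. The labels do not spell out what drives the deletion, and they name no allele for the controls. There were 3 βZKO_Mip libraries with azoramide, 2 βZKO_Mip libraries with DMSO, 3 control libraries with azoramide and 3 control libraries with DMSO. Each library held islets of at least 3 mice, so differences between single mice are averaged within it, and no source says whether libraries share mice.

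Libraries held 16832800 to 19501813 counts. Zzef1 was read in every library, at 72.1, 77.7 and 68.7 CPM (read counts scaled to library size after the trimmed mean of M values, TMM) in βZKO_Mip islets with azoramide and 79.4 and 83.5 CPM in βZKO_Mip islets with DMSO. In control islets it had 68.1, 64.3 and 67.4 CPM with azoramide and 85.4, 109.7 and 96.5 CPM with DMSO. The genotype difference was 0.13 on the log2 scale with azoramide and -0.26 with DMSO (edgeR adjusted p = 0.968 and 0.999), so the βZKO_Mip libraries are called labelled knockout below. Islet hormone and beta cell genes summed to between 154790 and 226160 CPM per library, as the tissue label implies, while acinar markers were at 522 to 5372 CPM and lymphocyte markers at 1.02 to 1.89 CPM. Among replicates, azoramide library 3 of the labelled knockout and DMSO library 2 of the controls differed most from the others of their group (chi-square per degree of freedom of their counts up to 25.2), and main counts that move by over 1.5 times without both are given beside the results.

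Islet capillaries are dense and fenestrated, and they carry hormones out and glucose in. Their upkeep rests on VEGF-A, made by beta cells, which signals through the tyrosine kinase receptor Kdr (VEGFR2), while Flt1 (VEGFR1) binds the same ligand tightly with weak kinase output and can hold it away from Kdr. A parallel system uses the angiopoietin receptor Tek (TIE2) and its partner Tie1, and the phosphatase Ptprb (VE-PTP) removes phosphate from Tek and stabilises the VE-cadherin junction made by Cdh5. Pecam1 and Esam are adhesion molecules of the endothelial junction, Plvap forms the diaphragms of fenestrae, and Eng (endoglin) is a co-receptor for BMP9 and TGF-beta ligands.

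Upstream sequence was available in RefSeq (GRCm38.p6) for 5 of the 10 genes. It is shown for the 2 VEGF receptors, which lie on chromosome 5, and for Tek and Eng, because Flt1 and Eng fell with azoramide and Kdr and Tek did not pass the test. Each stretch runs 5′ to 3′ on the gene's own strand and ends at the annotated gene start; capitals mark GGAAG, a core that ETS factors of endothelial genes can bind, or its reverse complement CTTCC. The position of Flt1 is chr5:147726012-147726261 (minus strand), that of Kdr chr5:75978459-75978705 (minus), that of Tek chr4:94739039-94739288 (plus) and that of Eng chr2:32646345-32646594 (plus).
Flt1: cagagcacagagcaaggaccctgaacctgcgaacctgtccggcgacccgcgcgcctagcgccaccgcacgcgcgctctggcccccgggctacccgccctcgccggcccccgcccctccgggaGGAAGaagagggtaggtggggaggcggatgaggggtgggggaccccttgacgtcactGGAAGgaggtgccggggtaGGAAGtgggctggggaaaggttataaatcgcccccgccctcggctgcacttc
Kdr: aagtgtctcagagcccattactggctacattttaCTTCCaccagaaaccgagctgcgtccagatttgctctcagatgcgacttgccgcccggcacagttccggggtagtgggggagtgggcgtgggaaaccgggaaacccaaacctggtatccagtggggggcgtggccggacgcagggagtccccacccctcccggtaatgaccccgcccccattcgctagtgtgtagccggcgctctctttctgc
Tek: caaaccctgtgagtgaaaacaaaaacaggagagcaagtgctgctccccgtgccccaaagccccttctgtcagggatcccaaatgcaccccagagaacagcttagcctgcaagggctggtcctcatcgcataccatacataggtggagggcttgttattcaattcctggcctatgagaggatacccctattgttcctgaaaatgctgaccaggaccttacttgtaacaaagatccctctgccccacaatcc
Eng: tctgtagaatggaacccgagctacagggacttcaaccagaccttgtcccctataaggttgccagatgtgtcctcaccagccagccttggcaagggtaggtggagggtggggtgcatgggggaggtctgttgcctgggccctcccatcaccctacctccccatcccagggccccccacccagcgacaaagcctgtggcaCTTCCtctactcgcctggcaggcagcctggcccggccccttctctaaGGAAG
The core occurred 3 times in the Flt1 stretch, 2 times in that of Eng, 1 time in that of Kdr and 0 times in that of Tek. Within 250 bases before the RefSeq start of Tie1 it occurred 6 times; most of that window lies inside the gene as GENCODE draws it and is not printed. The core is short and common: on either strand it was found in 64.1% of 32851 promoter windows of the same length, so its presence in 4 of 5 windows describes them and no more. The longer ETS motif AACAGGAA was in 2.25% of all windows and in 0 of the 5.

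Per kilobase of exonic length, Plvap was the most abundant marker. With DMSO it averaged 21.5 ± 2.1 CPM per kilobase in labelled knockout islets (SD, n = 2) and 21.9 ± 2.4 in control islets (SD, n = 3). Cdh5 followed at 14.1 ± 0.8 in labelled knockout and 13.9 ± 0.7 in control islets. Eng, Kdr and Pecam1 formed a group between 9.13 and 11.04 CPM per kilobase, and in control islets with DMSO their libraries overlapped, so their order is not resolved there. The length used counts every exon of a gene, and the order below Plvap depends on that choice. The longest transcript has 3441 of 6228 bases for Pecam1, 5924 of 9030 for Kdr and 6895 of 13504 for Flt1. For Cdh5 it has 3995 of 4203. Esam was at 4.29 and 4.51, Flt1 at 3.34 and 3.49, and Ptprb at 2.45 and 2.54 in labelled knockout and control islets with DMSO. Tie1, at 1.90 and 2.11, and Tek, at 1.58 and 1.38, were the lowest. With azoramide Plvap and Cdh5 were again the highest and Tie1 was last, at 1.36 ± 0.24 in labelled knockout and 1.24 ± 0.08 in control islets (SD, n = 3 each), and its libraries overlapped those of Tek in both genotypes. Raw counts of the markers ran from 99 for Tie1 to 1905 for Kdr.

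With azoramide, most of the 10 markers were lower than with DMSO. Of the 10 markers, 6 fell with azoramide in labelled knockout islets and the same 6, Ptprb, Flt1, Tie1, Cdh5, Plvap and Eng, fell in control islets; 0 of 10 rose in either. Among all genes, 19.8% of 15093 tested genes fell in labelled knockout islets and 19.8% in control islets, while 20.0% and 19.3% rose. The median log2 fold change of the 10 markers was -0.44 in labelled knockout and -0.33 in control islets, against -0.00 and -0.02 for all genes tested. The summed level of the 10 markers was 285 to 328 CPM with azoramide and 393 to 410 CPM with DMSO in labelled knockout islets, and 275 to 352 CPM with azoramide and 398 to 402 CPM with DMSO in control islets. In bulk RNA, fewer endothelial cells and less RNA per endothelial cell cannot be told apart. Every azoramide library lay below every DMSO library for 8 of 10 markers in labelled knockout islets, where 31.4% of all genes do so, and for 5 of 10 in control islets, where 24.6% do.

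**Figure D1:**
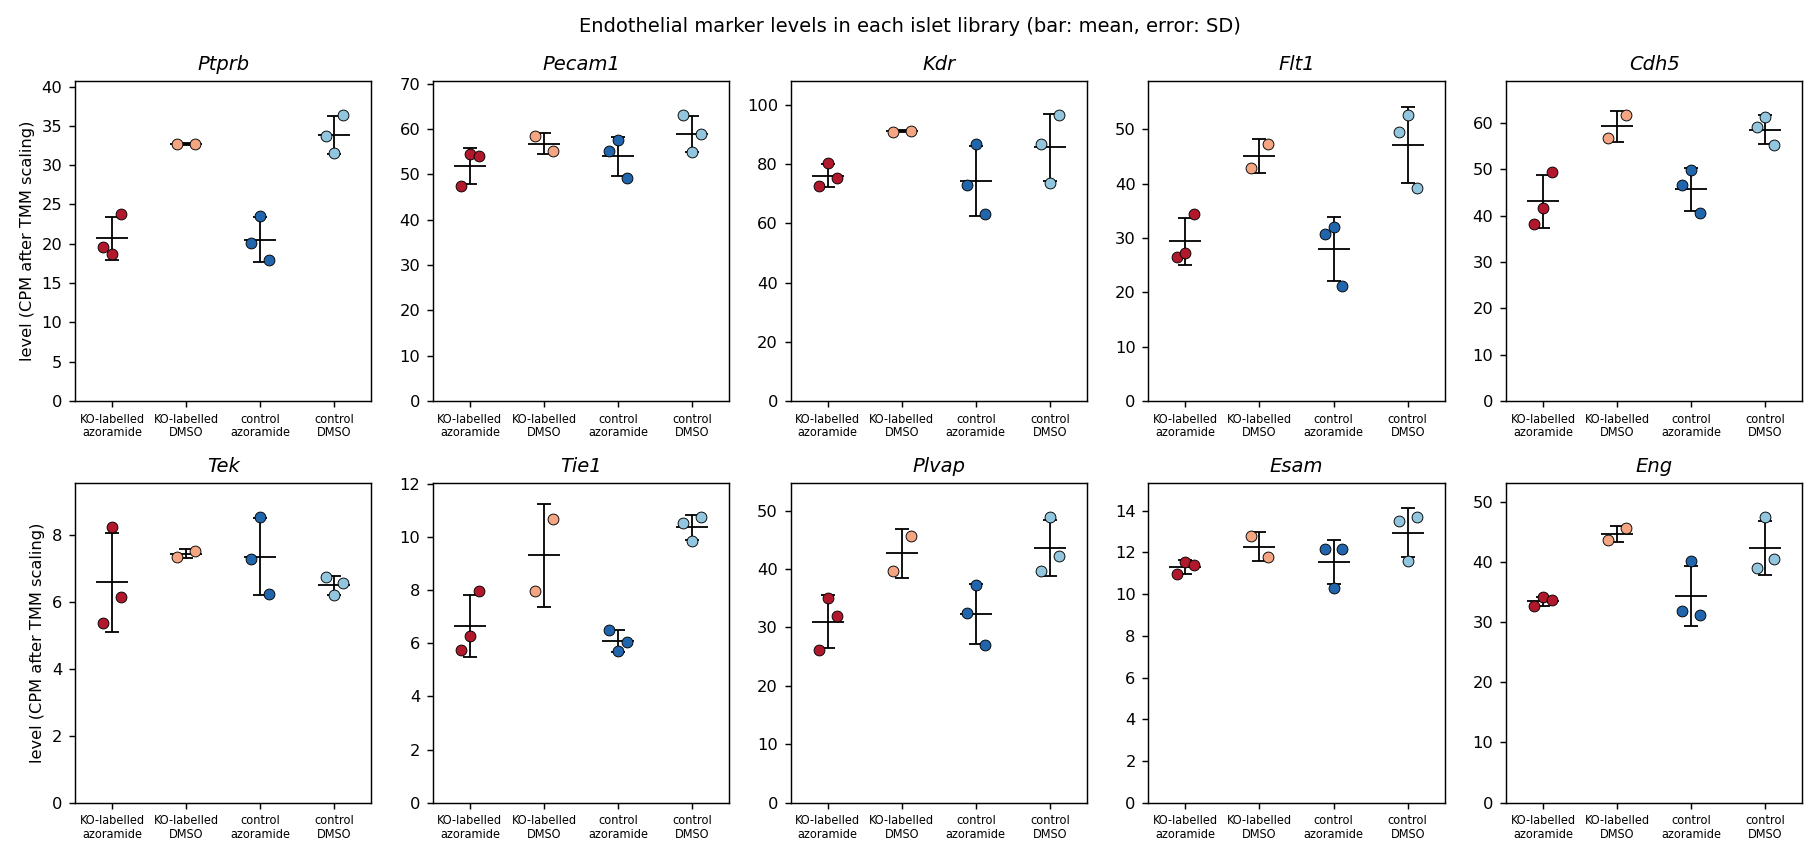
Level of each endothelial marker (CPM after TMM scaling, vertical axis from 0) in the 11 libraries of the 4 groups; points are libraries, bars are means and error bars are SD. Ptprb, Flt1 and Cdh5 are lower in all 6 azoramide libraries than in the DMSO libraries of the same genotype, while Tek, Pecam1 and Esam differ less between the 4 groups. In labelled knockout islets Pecam1 and Esam are still lower in every azoramide library than in every DMSO library, by a narrow margin.

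Among the VEGF receptors, Flt1 (ENSMUSG00000029648, chromosome 5, 147561604 to 147726011, minus strand, GRCm38; 30 exons in its longest transcript) had 26.6, 27.1 and 34.4 CPM with azoramide and 42.9 and 47.4 CPM with DMSO in labelled knockout islets. Control islets had 30.7, 31.9 and 21.2 CPM with azoramide, against 49.5, 52.6 and 39.2 CPM with DMSO. All 6 azoramide libraries lay below all 5 DMSO libraries. The log2 fold change was -0.62 in labelled knockout islets (SE 0.18, 95% interval -1.02 to -0.22, adjusted p = 0.0196) and -0.76 in control islets (SE 0.17, 95% interval -1.12 to -0.39, adjusted p = 0.00426).

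Kdr (ENSMUSG00000062960, chromosome 5, 75932827 to 75978458, minus strand; 30 exons) is the main signalling receptor for VEGF-A. It had 72.6, 80.3 and 75.4 CPM with azoramide and 90.8 and 91.3 CPM with DMSO in labelled knockout islets, and 73.1, 86.7 and 63.3 CPM with azoramide and 86.8, 73.8 and 96.5 CPM with DMSO in control islets. The groups were apart in labelled knockout islets and overlapped in control islets. Neither difference passed the test: -0.26 in labelled knockout (95% interval -0.53 to 0.01, adjusted p = 0.119) and -0.20 in control islets (95% interval -0.45 to 0.04, adjusted p = 0.176). Kdr did pass in 3 of 19 alternatives in each genotype, with plain library totals (-0.41 and -0.37, adjusted p = 0.0381 and 0.0390) and without control azoramide library 2 in both, with only the groups compared in labelled knockout islets, and without DMSO library 2 of the controls in control islets.

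Tie1 (ENSMUSG00000033191, chromosome 4, 118471191 to 118490061, minus strand; 22 exons), the partner receptor that has no well-established ligand of its own, had 5.74, 6.28 and 7.97 CPM with azoramide and 7.95 and 10.7 CPM with DMSO in labelled knockout islets. In control islets the values were 6.52, 5.71 and 6.06 CPM with azoramide and 10.5, 9.86 and 10.8 CPM with DMSO. The control groups were far apart, whereas in labelled knockout islets the highest azoramide library just exceeded the lower DMSO library. The log2 fold change was -0.49 in labelled knockout (SE 0.17, adjusted p = 0.0347) and -0.77 in control islets (SE 0.16, adjusted p = 0.001005).

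Tek (ENSMUSG00000006386, chromosome 4, 94739289 to 94874976, plus strand; 23 exons), the receptor for angiopoietins, had 5.36, 8.23 and 6.15 CPM with azoramide and 7.34 and 7.53 CPM with DMSO in labelled knockout islets. In control islets it had 7.28, 8.53 and 6.22 CPM with azoramide and 6.74, 6.19 and 6.55 CPM with DMSO. The groups overlapped in both genotypes. The difference was -0.18 in labelled knockout (95% interval -0.58 to 0.23, adjusted p = 0.507) and 0.18 in control islets (95% interval -0.19 to 0.55, adjusted p = 0.457), so falls and rises are both within the interval in each.

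Ptprb (ENSMUSG00000020154, chromosome 10, 116275523 to 116389535, plus strand; 32 exons), the phosphatase that acts on Tek, had 19.6, 18.7 and 23.7 CPM with azoramide and 32.6 and 32.7 CPM with DMSO in labelled knockout islets. Ptprb in control islets had 20.1, 23.5 and 17.9 CPM with azoramide and 33.7, 31.5 and 36.3 CPM with DMSO. The highest azoramide library of either genotype was well below the lowest DMSO library. Ptprb fell by 0.66 on the log2 scale in labelled knockout (SE 0.12, adjusted p = 0.000289) and by 0.72 in control islets (SE 0.11, adjusted p = 5.65e-05). In linear terms it fell by 36.8% in labelled knockout and fell by 39.35% in control islets.

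The junction genes did not all behave alike. Cdh5, which encodes VE-cadherin (ENSMUSG00000031871, chromosome 8, 104101625 to 104144511, plus strand; 12 exons), had 38.1, 41.7 and 49.4 CPM with azoramide and 56.8 and 61.6 CPM with DMSO in labelled knockout islets. Control islets showed 46.5, 49.8 and 40.6 CPM with azoramide and 59.1, 61.4 and 55.2 CPM with DMSO. All azoramide libraries were below all DMSO libraries, and the log2 fold change was -0.46 in labelled knockout (SE 0.10, adjusted p = 0.00183) and -0.36 in control islets (SE 0.09, adjusted p = 0.00550). Pecam1 (ENSMUSG00000020717, chromosome 11, 106654217 to 106750628, minus strand; 16 exons), the CD31 adhesion molecule, ranged from 47.4 to 57.6 CPM with azoramide and from 55.0 to 63.1 CPM with DMSO over both genotypes. In labelled knockout islets Pecam1 was at most 54.5 CPM with azoramide and at least 55.3 CPM with DMSO, while the control groups overlapped. Its difference of -0.13 did not pass the test in labelled knockout (95% interval -0.31 to 0.06, adjusted p = 0.262) or in control islets (-0.13, 95% interval -0.29 to 0.04, adjusted p = 0.222). Esam (ENSMUSG00000001946, chromosome 9, 37528078 to 37538319, plus strand; 7 exons), an immunoglobulin-family adhesion molecule of tight junctions, ranged from 10.3 to 12.2 CPM with azoramide and from 11.6 to 13.7 CPM with DMSO. It gave -0.12 in labelled knockout (95% interval -0.39 to 0.15) and -0.16 in control islets (95% interval -0.41 to 0.08), with adjusted p = 0.498 and 0.297. The Esam groups too were just apart in labelled knockout islets, at most 11.6 CPM with azoramide and at least 11.8 CPM with DMSO, and overlapped in control islets.

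Plvap, whose product builds the diaphragms across fenestrae (ENSMUSG00000034845, chromosome 8, 71497765 to 71511752, minus strand; 6 exons), had 26.1, 34.97 and 31.9 CPM with azoramide and 39.7 and 45.6 CPM with DMSO in labelled knockout islets. Plvap in control islets had 32.5, 37.3 and 27.0 CPM with azoramide and 39.6, 48.9 and 42.3 CPM with DMSO. The groups did not overlap in either genotype, and the log2 fold change was -0.46 in labelled knockout (SE 0.14, adjusted p = 0.0198) and -0.44 in control islets (SE 0.13, adjusted p = 0.0165). Eng (ENSMUSG00000026814, chromosome 2, 32646595 to 32682669, plus strand; 15 exons) had 32.7, 34.2 and 33.6 CPM with azoramide and 43.7 and 45.6 CPM with DMSO in labelled knockout islets. In control islets it had 31.8, 40.1 and 31.2 CPM with azoramide and 39.1, 47.5 and 40.6 CPM with DMSO, and 1 azoramide library overlapped the DMSO group. Eng fell by 0.42 on the log2 scale in labelled knockout (SE 0.11, adjusted p = 0.00497) and by 0.30 in control islets (SE 0.10, adjusted p = 0.0199). It shares 61 exonic bases with Fpgs on the opposite strand, and whether counting used strand is not given in the sources used here.

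**Figure D2:**
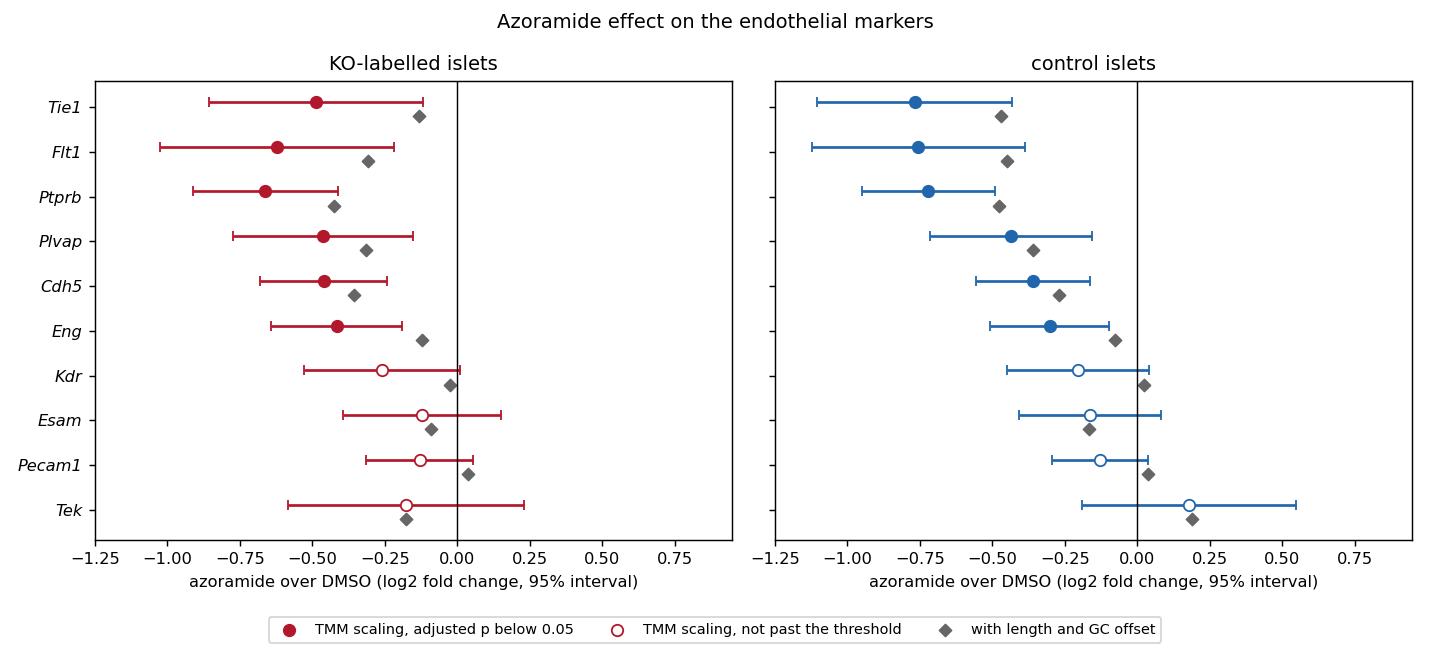
Log2 fold change of azoramide over DMSO for each marker (horizontal axis) in labelled knockout islets (left, red) and control islets (right, blue); circles with bars are the estimates with 95% intervals, filled where adjusted p is below 0.05, and grey diamonds are the estimates corrected for gene length and GC content. The same 6 genes, Tie1, Flt1, Ptprb, Plvap, Cdh5 and Eng, are filled in both panels, and most diamonds lie nearer to 0 than their circles.

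Leaving out single libraries ended the call of 4 of the 6 markers. In labelled knockout islets Flt1 and Tie1 lost their call without azoramide library 1 or 2 or DMSO library 2 (Flt1 also without DMSO library 1), Plvap without azoramide library 1 or DMSO library 2, and Eng without DMSO library 2. In control islets Plvap lost its call without azoramide library 3 or DMSO library 2, and Eng without azoramide library 1 or 3 or DMSO library 2. Over all 19 alternatives the log2 fold change in labelled knockout islets ran from -0.78 to -0.31 for Flt1 (adjusted p up to 0.217), from -0.68 to -0.13 for Tie1 (up to 0.615), from -0.62 to -0.31 for Plvap (up to 0.173) and from -0.57 to -0.12 for Eng (up to 0.409). In control islets it ran from -0.60 to -0.32 for Plvap (up to 0.0947) and from -0.47 to -0.08 for Eng (up to 0.599). Ptprb and Cdh5 kept theirs whichever library was left out, with log2 fold changes over all alternatives of -0.82 to -0.42 in labelled knockout and -0.89 to -0.48 in control islets for Ptprb and -0.62 to -0.36 and -0.53 to -0.27 for Cdh5.

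Gene length moved with the azoramide effect among all genes. Among tested genes in 5 equal classes of exonic length, the median log2 fold change from the shortest to the longest class was 0.29, 0.09, -0.03, -0.10 and -0.16 in labelled knockout islets and 0.28, 0.07, -0.04, -0.11 and -0.20 in control islets. The share of genes that fell was 3.3% in the shortest and 35.3% in the longest class in labelled knockout islets, and 2.6% and 39.6% in control islets. Ptprb (13333 bases), Flt1 (13504) and Kdr (9030) are in the longest class, Pecam1 in the fourth, Tie1, Tek, Cdh5 and Eng in the middle class, Esam in the second and Plvap (1987) in the shortest. After a correction of each library for its trend with length and GC content (length-GC correction), 2 of 10 markers still fell in labelled knockout islets, Ptprb (-0.42, adjusted p = 0.00847) and Cdh5 (-0.36, adjusted p = 0.0139). In control islets 3 fell, Ptprb (-0.48, adjusted p = 0.00190), Cdh5 (-0.27, adjusted p = 0.0367) and Tie1 (-0.47, adjusted p = 0.0358). The median of the 10 markers was then -0.16 in labelled knockout and -0.22 in control islets. With the correction 3769 of all genes were called in labelled knockout and 3506 in control islets, 58.6% and 60.8% of them higher. Without it 6006 and 5893 were called, 50.2% and 49.3% of them higher. The share of all genes that fell was thus smaller with the correction than the 19.8% without it. Plvap, in the shortest class, fell by 0.46 and 0.44 before that correction, where the median gene of its class was at 0.29 and 0.28. Its GC content of 60.6% was the highest of the 10 markers, and the correction did not separate length from GC content. After the correction Plvap was at -0.31 and -0.36 and did not pass (edgeR adjusted p = 0.126 and 0.0572). Kdr and Pecam1 were then near 0, Kdr at -0.02 and 0.02 and Pecam1 at 0.04 and 0.04, so the direction turned for Kdr in control islets and for Pecam1 in both.

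**Figure D3:**
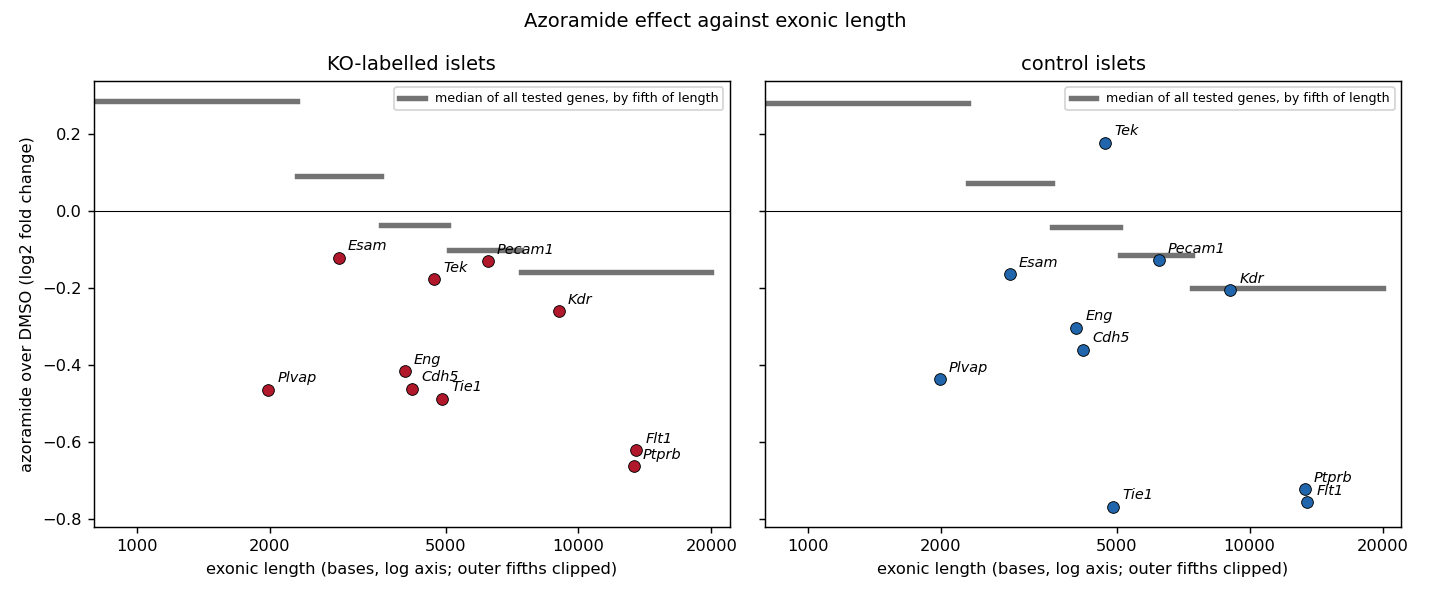
Log2 fold change of azoramide over DMSO (vertical axis) against exonic length in bases (log axis) in labelled knockout islets (left) and control islets (right); points are the 10 markers and grey bars are the medians of all tested genes in 5 classes of length, the outermost bars being clipped at the plot's edge. The bars step down with length, and Plvap, Tie1, Ptprb and Flt1 lie well below the bar of their class.

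Since Flt1 and Kdr share a ligand, and Tie1, Tek and Ptprb act in 1 receptor complex, ratios of their raw counts within a library were also taken, which do not depend on the scaling between libraries. The pairs were chosen after the values were seen, so the ratios describe the libraries and carry no test. The ratio of Flt1 to Kdr was 0.37, 0.34 and 0.46 with azoramide and 0.47 and 0.52 with DMSO in labelled knockout islets, and 0.42, 0.37 and 0.33 with azoramide and 0.57, 0.71 and 0.41 with DMSO in control islets. The azoramide libraries were lower in labelled knockout islets, while in control islets the third DMSO library lay among them. Tie1 to Tek was 1.07, 0.76 and 1.30 with azoramide and 1.08 and 1.42 with DMSO in labelled knockout islets, and 0.90, 0.67 and 0.97 with azoramide and 1.56, 1.59 and 1.64 with DMSO in control islets. Those groups were well apart in control islets and overlapped in labelled knockout islets. Ptprb to Tek was 2.27 to 3.86 in the 6 azoramide libraries and 4.35 to 5.55 in the 5 DMSO libraries, with no overlap. The ratios are not corrected for gene length, and Ptprb (13333 bases) is in the longest class, while Tek (4712) and Cdh5 are in the middle one. After the length-GC correction Ptprb was at -0.42 and -0.48 and Tek at -0.18 and 0.19, so part of the gap between them went with length and GC content. Ptprb to Cdh5, phosphatase to junction substrate, was 0.43 to 0.51 with azoramide and 0.51 to 0.66 with DMSO, the ranges just touching. Esam to Pecam1, of which neither passed the test, was 0.18 to 0.25 with azoramide and 0.21 to 0.23 with DMSO.

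**Figure D4:**
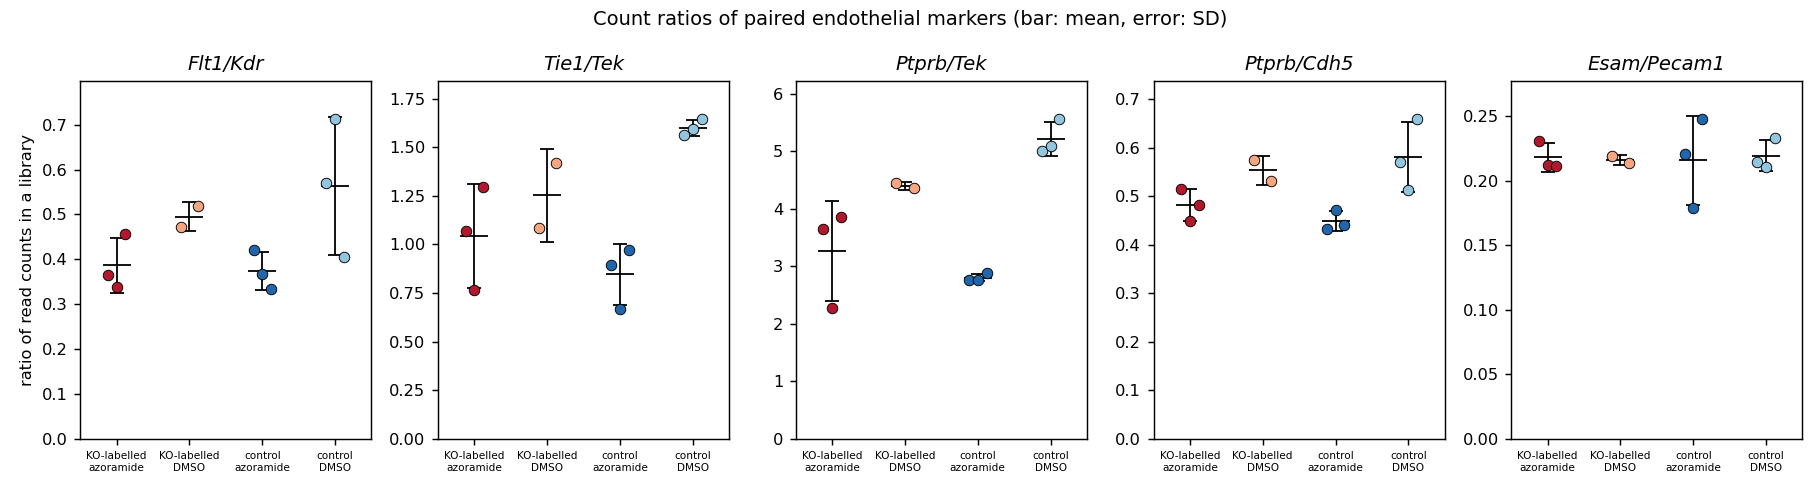
Ratio of raw read counts of 2 markers within each library (vertical axis from 0) for 5 pairs in the 4 groups; points are libraries, bars are means and error bars are SD. Ptprb to Tek is at most 3.86 with azoramide and at least 4.35 with DMSO, while Esam to Pecam1 is near 0.22 in every group.

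Between the genotype labels no marker passed the test. With azoramide, 0 of 10 markers passed the test between labelled knockout and control islets, and their log2 differences ran from -0.16 for Tek to 0.13 for Tie1. With DMSO again 0 passed, with a range from -0.15 for Tie1 to 0.20 for Tek. Over all genes edgeR called 0% of 15093 in either genotype comparison; 754 genes had an unadjusted p below 0.05 with azoramide and 531 with DMSO, and DESeq2 called 2 and 3. For Cdh5 the 95% interval was -0.28 to 0.11 with azoramide and -0.20 to 0.23 with DMSO; for Ptprb it was -0.22 to 0.24 and -0.30 to 0.20. Tek with DMSO was the only marker whose libraries did not overlap, 7.34 and 7.53 CPM in labelled knockout against 6.74, 6.19 and 6.55 CPM in control islets, with a 95% interval of -0.21 to 0.60; among all genes 9.87% were higher and 9.57% lower in every labelled knockout library in that comparison.

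Whether azoramide acted differently in the 2 genotypes was tested as an interaction, the effect in labelled knockout islets minus that in control islets. edgeR called 0% of all genes, of which 563 had an unadjusted p below 0.05, and DESeq2 called 0. Among the markers the estimates ran from -0.35 for Tek (95% interval -0.91 to 0.20) to 0.28 for Tie1 (95% interval -0.22 to 0.78), each with adjusted p = 0.999. For Ptprb the interaction was 0.06 (95% interval -0.28 to 0.40). The larger Tie1 effect in control islets is therefore not shown to differ from that in labelled knockout islets.

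To see which other genes of the vessel wall moved beside the 10, lists of vascular genes were read in the same fit. Of 30 other endothelial genes, 6 fell and 1 rose with azoramide in labelled knockout islets and 8 fell and 3 rose in control islets. Among all genes 19.8% fell in each genotype, so the falls are near the share of all genes. The rises are below it, as 20.0% of all genes rose in labelled knockout and 19.3% in control islets. The counts of every list below stand against the same shares. Ramp2 was the 1 gene of the list that rose in both, by 0.92 and 0.68 on the log2 scale (edgeR adjusted p = 0.01015 and 0.0243). The medians of the list were -0.25 and -0.22. Ets1, an ETS transcription factor of endothelial and other cells, had 15.8, 15.8 and 13.3 CPM with azoramide and 24.1 and 21.6 CPM with DMSO in labelled knockout islets, and 11.8, 14.5 and 10.9 CPM with azoramide and 19.2, 19.8 and 19.6 CPM with DMSO in control islets. It fell in both, by 0.61 and 0.65 on the log2 scale (adjusted p = 0.000762 and 0.000224). Robo4, an endothelial guidance receptor that stabilises vessels, fell by 0.75 and 0.44, and Rasip1, a junction and lumen regulator, by 0.81 and 0.76; after the length-GC correction Robo4 did not pass in control islets (-0.20) nor Rasip1 in labelled knockout islets (-0.41). Emcn, endomucin of capillaries and veins, rose in control islets (0.40, adjusted p = 0.00353) and was at -0.04 in labelled knockout islets (adjusted p = 0.826). The rise of Emcn did not pass the test with plain library totals (0.23, adjusted p = 0.0662) or after the length-GC correction (0.24, adjusted p = 0.0994). Other classical markers did not pass in either genotype: the transcription factor Erg gave -0.27 and -0.34 (-0.51 in control islets with plain library totals, where it passed, adjusted p = 0.0176, as it did without the 2 libraries that stand apart), Vwf, the von Willebrand factor, -0.57 and -0.44 (0.05 in control islets after the length-GC correction), and Cldn5, the tight junction claudin, 0.20 and -0.33 at a mean of only 2.12 CPM.

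Ligands and further receptors of the same pathways gave 3 falls and 1 rise among 9 tested genes in labelled knockout islets. They gave 2 falls and 1 rise in control islets, where 4 fell without the 2 libraries that stand apart. Of all genes 19.8% fell in each genotype. Vegfa, the ligand of Flt1 and Kdr, had 403, 400 and 496 CPM with azoramide and 529 and 540 CPM with DMSO in labelled knockout islets, and 463, 424 and 418 CPM with azoramide and 553, 472 and 500 CPM with DMSO in control islets. Its groups did not overlap in either genotype. It fell by 0.30 in labelled knockout (adjusted p = 0.0127) and by 0.23 in control islets (adjusted p = 0.0362), and after the length-GC correction it no longer passed (-0.23 and -0.16, adjusted p = 0.0626 and 0.164). Its call was kept in 14 of 19 alternatives in labelled knockout and 12 of 19 in control islets. In labelled knockout islets it was lost without azoramide library 1 or 2 or either DMSO library of that genotype. In control islets it was lost without azoramide library 2 or 3 or DMSO library 1 or 3 of the controls, or without either DMSO library of the labelled knockout. Flt4, the VEGF-C receptor VEGFR3, fell by 0.58 and 0.81, and its call too was lost after that correction (-0.12 and -0.42, adjusted p = 0.628 and 0.0554); in labelled knockout islets it was also lost without azoramide library 1 or either DMSO library. Angpt2, an angiopoietin that endothelial cells store and that can oppose Angpt1 at Tek, moved the other way. It had 45.2, 46.2 and 39.9 CPM with azoramide and 30.8 and 33.2 CPM with DMSO in labelled knockout islets, and 42.9, 40.6 and 41.8 CPM with azoramide and 36.7, 24.8 and 32.5 CPM with DMSO in control islets. It rose by 0.45 and 0.42 (adjusted p = 0.00828 and 0.00667), a call that remained after the length-GC correction (0.38 and 0.35) and was lost with plain library totals (0.30 and 0.25, adjusted p = 0.0795 and 0.0997) and, in labelled knockout islets, without DMSO library 1. Vegfb, a ligand of Flt1, fell by 0.43 in labelled knockout islets (adjusted p = 0.0140) and was at -0.28 in control islets (adjusted p = 0.0680). Its call was lost after the length-GC correction (-0.29, adjusted p = 0.102) and without azoramide library 2 or either DMSO library of the labelled knockout. Nrp1, the VEGF co-receptor, did not pass (-0.11 and 0.11, the second turning to -0.05 with plain library totals), and Angpt1 did not pass the filter on low counts.

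Around endoglin, 5 of 15 tested BMP and TGF-beta genes fell and 3 rose in labelled knockout islets, and 7 fell and 3 rose in control islets. The 3 that rose in each were Id1, Id2 and Id3, inhibitory helix-loop-helix factors that BMP signalling induces in many cells, endothelial and endocrine. Id2 rose by 1.19 and 1.18, at 76.7 to 89.9 CPM with azoramide and 35.9 to 38.4 CPM with DMSO in labelled knockout islets and 73.4 to 91.2 CPM and 33.1 to 40.7 CPM in control islets; Id3 rose by 0.92 and 0.996. Bmpr2, the type II BMP receptor, fell by 0.25 and 0.30 and Smad4, the shared SMAD, by 0.36 and 0.23; Bmpr2 lost its call in labelled knockout islets without DMSO library 1. Acvrl1 (ALK1), the endothelial type I receptor that works with Eng, did not pass (-0.01 and 0.25, adjusted p = 0.984 and 0.223); after the length-GC correction it rose in control islets (0.47, adjusted p = 0.0298) and was at 0.27 in labelled knockout islets (adjusted p = 0.254).

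Of 10 vascular Notch and ephrin genes 5 fell in labelled knockout and 5 in control islets, and 0 rose. Dll4, the Notch ligand of endothelial tip and arterial cells, had 9.92, 10.3 and 14.1 CPM with azoramide and 21.4 and 22.6 CPM with DMSO in labelled knockout islets. Dll4 in control islets had 10.2, 11.4 and 9.003 CPM with azoramide and 22.2, 18.5 and 23.0 CPM with DMSO. All azoramide libraries were below all DMSO libraries, and it fell by 0.94 and 1.06 (adjusted p = 8.31e-05 and 1.33e-05) and by 0.72 and 0.89 after the length-GC correction. Notch4, an endothelial Notch receptor, fell by 0.96 and 0.67 and Notch1 by 0.79 and 0.42; after that correction neither passed in either genotype (Notch4 at -0.36 and -0.16, Notch1 at -0.23 and 0.08), and the direction of Notch1 turned in control islets. The correction left 3 falls in each genotype.

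Of 10 genes of the basement membrane beneath the endothelium 9 fell in each genotype, with medians of -0.68 in labelled knockout and -0.76 in control islets. Other cells of the islet also make several of these proteins. Lama4, the laminin chain typical of endothelial basement membrane, had 6.87, 7.73 and 7.74 CPM with azoramide and 11.9 and 14.6 CPM with DMSO in labelled knockout islets, and 6.87, 6.80 and 5.11 CPM with azoramide and 14.3, 12.5 and 15.2 CPM with DMSO in control islets. It fell by 0.83 and 1.16 (adjusted p = 0.000478 and 1.03e-05). Col4a1, a collagen IV chain, fell by 0.66 and 0.79, and Hspg2, perlecan, by 0.76 and 0.87. After the length-GC correction 3 and 5 of the 10 fell, with medians of -0.23 and -0.37; Lama4 remained among them (-0.53 and -0.87), Col4a1 remained in control islets (-0.39) but not in labelled knockout islets (-0.19, adjusted p = 0.192), and Hspg2 remained in neither (-0.09 and -0.27). Of 12 junction partners 3 fell and 2 rose in labelled knockout islets and 4 fell and 3 rose in control islets. These counts are not far from the shares of all genes, of which 19.8% fell in each genotype and 20.0% and 19.3% rose. Tjp1, the ZO-1 scaffold that epithelial and endocrine cells also make, fell by 0.57 and 0.50. Of 6 caveola genes 0 passed the test in either genotype, with medians of -0.05 and 0.03; without the 2 libraries that stand apart 1 rose and 1 fell in labelled knockout islets and 1 fell in control islets.

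**Figure D5:**
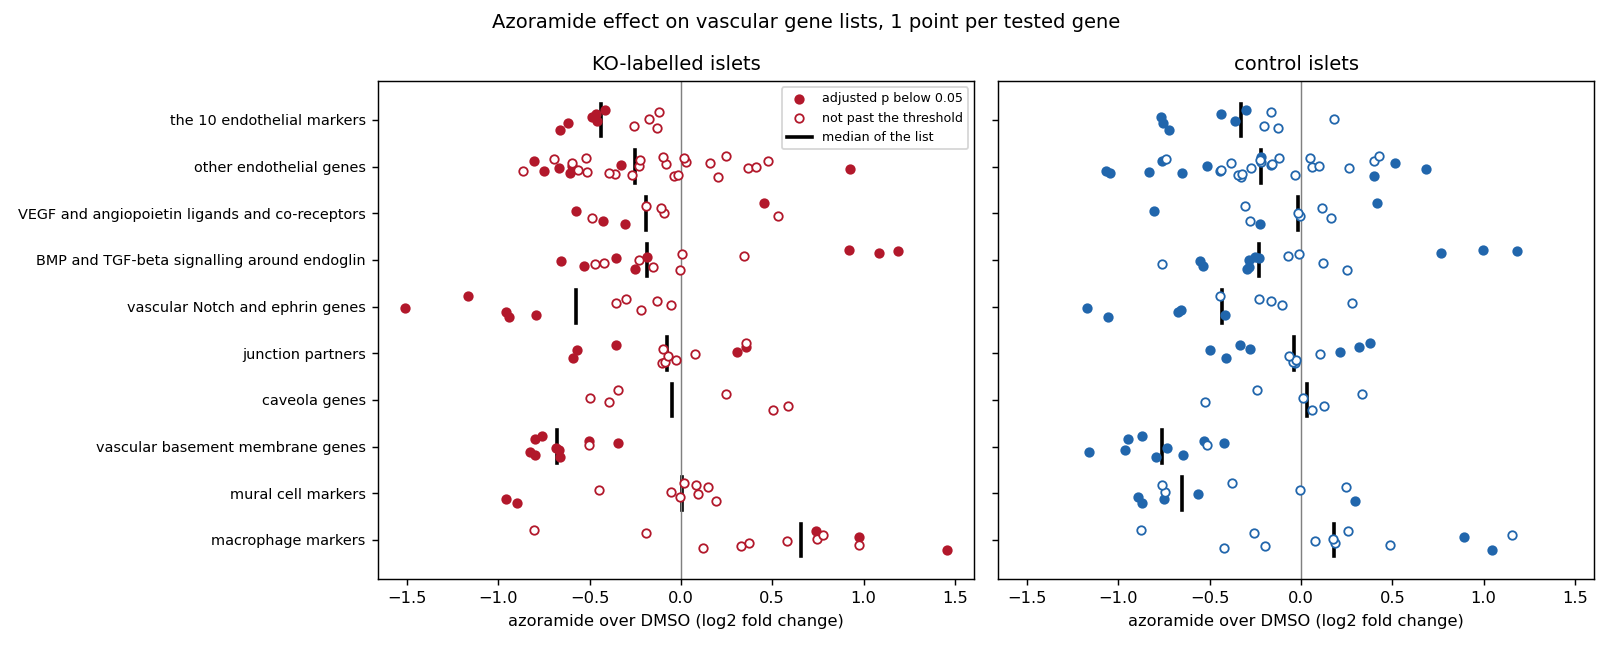
Log2 fold change of azoramide over DMSO (horizontal axis) for each tested gene of the 10 markers and 9 other lists in labelled knockout islets (left) and control islets (right); filled points have an adjusted p below 0.05 and black bars are list medians. Basement membrane genes lie furthest to the left as a group, caveola genes are all unfilled, and the 3 filled points at the right of the BMP row are Id1, Id2 and Id3.

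Other cells of the islet preparation were read for the same libraries. Of all genes 19.8% fell in each genotype, and 20.0% rose in labelled knockout and 19.3% in control islets. Several of the counts below are near those shares. Of 10 tested mural cell markers 2 fell in labelled knockout islets and 4 fell and 1 rose in control islets, with summed levels of 53.1 to 61.6 CPM with azoramide and 59.8 to 62.2 CPM with DMSO in labelled knockout islets and 56.9 to 59.5 CPM and 58.7 to 67.7 CPM in control islets. Pdgfrb, the receptor of pericytes, fell by 0.90 and 0.87 and Cspg4, the pericyte proteoglycan NG2, by 0.96 and 0.75, whereas Rgs5, also a pericyte gene, gave 0.19 (adjusted p = 0.249) and rose by 0.30 in control islets (adjusted p = 0.0446), a call lost in 9 of 19 alternatives. Pdgfrb kept its call in all 19 alternatives in both genotypes. Cspg4, at a mean of 2.52 CPM, lost its call after the length-GC correction (-0.34 and -0.22). It also lost it in labelled knockout islets without DMSO library 1 of that genotype. In control islets its call was lost without azoramide library 2, DMSO library 2 or the 2 libraries that stand apart. Of 12 macrophage markers 3 rose in labelled knockout islets (6 without the 2 libraries that stand apart) and 2 in control islets and 0 fell, with sums of 68.6 to 127.6 CPM with azoramide and 55.8 to 56.1 CPM with DMSO in labelled knockout islets and 67.8 to 86.9 CPM and 49.6 to 63.4 CPM in control islets. Cd68, a lysosomal protein of macrophages, rose by 1.46 and 1.04. It had 33.9 to 42.4 CPM with azoramide and 13.3 to 14.9 CPM with DMSO in labelled knockout islets, a large part of those sums. Cd14 also rose in both, by 0.97 and 0.89, calls kept in 14 and 16 of 19 alternatives. Ptprc rose by 0.74 in labelled knockout islets, a call kept in 14 of 19. Of the 12 markers, 9 in labelled knockout and 10 in control islets did not pass. Below 0 were Mrc1 and Itgam in both genotypes, and Adgre1 and Csf1r in control islets alone. The list ran from -0.80 to 1.46 (median 0.66) in labelled knockout and from -0.88 to 1.16 (median 0.18) in control islets. Of 5 platelet and red cell genes 0 passed in labelled knockout islets. In control islets 3 haemoglobin genes rose, the alpha gene Hba-a1 and the beta genes Hbb-bs and Hbb-bt (0 without those 2 libraries). Hba-a2, the other alpha gene, did not pass there (0.85, edgeR adjusted p = 0.115). Copies of 1 chain are near-identical, so their reads may be split. The sums were 23.9 to 40.2 CPM with azoramide and 13.1 to 17.6 CPM with DMSO in control islets. The 7 acinar markers did not pass in either genotype and ranged widely, from 901 to 5372 CPM with azoramide and 522 to 2022 CPM with DMSO in labelled knockout islets and from 1612 to 4175 CPM and 800 to 4398 CPM in control islets. Among 4 tested lymphatic endothelial genes Lyve1, also made by macrophages, rose by 1.34 and 0.89, the control value losing its call in 10 of 19 alternatives and the labelled knockout value without DMSO library 2, and Prox1, also made by endocrine cells, fell by 0.33 and 0.33. Of 7 fibroblast markers 0 and 1 fell, of 5 ductal markers 0 and 1 rose, of 4 Schwann cell markers none passed, and of 5 tested activation genes 0 and 1 rose, Ackr1 at a mean of 0.29 CPM. Of 12 endocrine genes 3 rose and 5 fell in labelled knockout islets and 5 rose and 5 fell in control islets. Beta cell genes went both ways. Ins1 fell by 0.50 and 0.46, while Iapp, the amylin gene, rose by 0.75 and 0.77. After the length-GC correction Iapp did not pass (0.01 and 0.11). Gcg, the glucagon gene, rose by 0.66 and 0.78, and by 0.34 in control islets after the length-GC correction, where labelled knockout islets no longer passed (0.17, adjusted p = 0.138). The 1 lymphocyte gene tested did not pass. The part of these cells in the marker values was not tested.

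The genes whose levels over the 11 libraries ran closest to the mean of the 10 markers are named by a rule of likeness. By the root mean square difference of centred log2 CPM among 11612 genes, the nearest were Itpr3 (0.0482), an inositol trisphosphate receptor of the endoplasmic reticulum, Sparc (0.0491), a matricellular glycoprotein, Wnk1 (0.0495), a kinase of ion transport, and Hexim1 (0.0507), an inhibitor of transcription elongation. Aff1, Neo1, Lrrc8a, Rnf216, Kdm5b and Setdb1 followed, at 0.0555 to 0.0599. Of the 10 nearest, 0 were on the list of other endothelial genes. That list has only 30 genes against the 11612 compared, so a count of 0 carries little weight. Among the markers themselves Cdh5 was nearest to the common pattern (0.0639) and Tek furthest (0.239). Cdh5 and Ptprb were also the 2 markers that fell in all 19 alternative fits in both genotypes.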

How the data were processed

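RNA of whole islets was sequenced in 11 libraries. Values are unnormalized read counts that the authors deposited in 1 table; whole numbers in every column were checked. The submitters' processing notes name STAR 2.7.2a, the build mm10 and DESeq2, with no role for the last. How reads were counted, with which annotation and strand rule, is not given in the sources used here. Groups and replicate numbers came from the sample titles.

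Counts were tested in R 4.3.3 with the quasi-likelihood test of edgeR 4.0.16 (TMM scaling, robust dispersion, filter for low counts by group), with all 11 libraries in 1 fit of 4 groups. P-values were adjusted by Benjamini-Hochberg across the 15093 genes, with a threshold of 0.05. Intervals and p-values cover the spread between these libraries, which may be technical. Positions, exonic length and GC content came from GENCODE M21 on GRCm38, where 32158 of 32285 genes had an entry, and upstream sequence from RefSeq. Within groups no pair of libraries agreed within sampling noise (chi-square per degree of freedom 5.69 to 25.2). Alternatives were DESeq2 1.42.0 size factors and Wald test, plain library totals, no filter, a length-GC correction (an offset fitted with splines), only the groups compared, a replicate block and each library left out. The steps were tested on simulated data.

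The markers, lists and tests were chosen with earlier results of these data known. Named genes are the 10 markers, up to 4 genes of smallest p per list, 16 genes whatever their result and the 10 genes most alike in pattern. Id1, Ramp2, Adgre1, Csf1r, Mrc1 and Itgam were named after their values were seen.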

Additional observations from a re-analysis of the deposited data

How the results depend on the processing

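The 6 falling markers in each genotype were also 6 with DESeq2 size factors and with the DESeq2 Wald test. After the length-GC correction, 2 fell in labelled knockout and 3 in control islets, and of all genes 3769 and 3506 were called, 58.6% and 60.8% of them higher, against 6006 and 5893 genes, 50.2% and 49.3% higher, without it. Plain library totals put the median of all genes at -0.16 and -0.19 and called 8 and 9 markers. Leaving out 1 library at a time gave 2 to 7 markers in labelled knockout islets (2 without DMSO library 2, 3 without azoramide library 1, both labelled knockout) and 4 to 7 in control islets. Without the 2 libraries that stand apart (control with DMSO, replicate 2, and labelled knockout with azoramide, replicate 3), 6 and 4 markers fell. Over 19 alternatives Ptprb and Cdh5 fell in 19 in both genotypes, Tie1 in 14 and 19, Flt1 in 12 and 18, Plvap in 16 and 15, and Eng in 17 and 13 (labelled knockout and control islets). No called marker changed sign; of the other named genes that were called, Notch1 in control islets did (0.08 after the length-GC correction, -0.42 without it).

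For the genotype label with azoramide, all genes gave 2 calls by the DESeq2 Wald test, 84 without those 2 libraries together and 0 to 3 with 1 library left out. With DMSO they gave 3 by the Wald test, 2 with no filter, 1 with the replicate block, 2 without those 2 libraries and 0 to 3 with 1 left out, and the interaction gave 6 without those 2 libraries and 0 to 1 with 1 left out. None of the 10 markers was among the calls in these comparisons.

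Same-numbered libraries did not deviate together (correlations of -0.144 to 0.16). With 2 or 3 libraries per group, these correlations cannot tell whether such libraries share mice. With the replicate block 5 markers fell in labelled knockout islets, Flt1 losing its call, and 6 in control islets, with 0 markers in the genotype comparisons and the interaction. The lowest counts per library were those of Tie1 (99 to 223) and Tek (100 to 157), which limits what could be detected for them.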
